A study of Mus musculus with 6 samples.

Results

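The mitochondrial protein import machinery was examined through 42 gene rows, chosen by symbol: the Timm and Tomm genes, Timmdc1, Samm50, Mtx1 to Mtx3, Pmpca, Pmpcb and the Chchd genes, of 52249 rows in all. Expression had been measured by 3′ mRNA sequencing, which is designed to read the polyadenylated end, so that long and short transcripts are counted alike. Rows of other RNAs, such as Snord89, were also counted. The samples were 6 libraries of mouse intestinal organoids, epithelial cultures grown from intestinal cells. Apc, a tumour suppressor and brake on the WNT pathway, was knocked out in all 6 libraries, and no library with intact Apc was analysed here. The Apc-knockout group held 3 libraries (the control), and the group labelled Apc-knockout with IGF2BP3 overexpression (IGF2BP3 OE), an RNA-binding protein, held 3. The labels give no age, sex, clone or promoter of the overexpressed gene, and do not say whether replicates were separate cultures, so p-values measure the spread between these libraries only.

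Nearly all mitochondrial proteins are made in the cytosol and are carried into the organelle by translocases. The TOM complex is the entry gate of the outer membrane, and from there precursors are passed to the SAM complex for outer-membrane barrels, to the TIM23 complex for the matrix and inner membrane, to the small TIM chaperones and the TIM22 complex for inner-membrane carriers, or to the CHCHD4 oxidation pathway of the intermembrane space. In the matrix, a peptidase removes the targeting presequence. Intestinal epithelium renews continually and relies on mitochondrial metabolism.

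The libraries held 2180116 to 2519917 counts. Levels are given as CPM, counts per 1000000 counts after TMM scaling, and the detection floor of 3 counts corresponds to 1.18 to 1.41 CPM. Igf2bp3 itself was counted 1, 0 and 0 times in control libraries and 1, 0 and 0 times in IGF2BP3 OE libraries, and a transcript from another species or a construct without the mouse 3′ end would not be counted in this row. The overexpression was therefore not checked by these counts, and directions below are those of the labels. The library names form a separate series for each group, and library batch and group cannot be told apart. Mitochondrially encoded genes took 11.6 to 12% of control and 6.77 to 7.19% of IGF2BP3 OE counts. Of 9 epithelial markers Krt20 was at 0, and their summed level was 4263 to 4498 CPM in control and 5584 to 6316 CPM in IGF2BP3 OE libraries, with 5 of 8 tested markers higher and 1 lower. The 7 fibroblast markers summed to at most 1.41 CPM (Col1a2, Col3a1, Dcn, Lum and Pdgfrb at 0) and the 5 endothelial markers to at most 0.922 CPM (Cdh5 and Tek at 0). The immune markers summed to 41.3 to 51.6 CPM in control and 60.9 to 75.8 CPM in IGF2BP3 OE libraries, mostly Csf1r and Cd68, with Cd3e and Lyz2 at 0. A fit without mitochondrial and ribosomal RNA genes is among the alternatives below. Otherwise the part of these differences in the results was not tested. IGF2BP3 OE replicate 1 stood apart: of 8851 genes with a mean of at least 10 CPM, 271 (3.06%) lay there at less than 50% of the lower of the other IGF2BP3 OE libraries, against 7 to 12 genes in each other library. Members whose direction or call changed, or whose value moved by over 1.5 times, without it are given with and without it where they are described.

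Of the 42 rows, 36 passed the count filter, and 9 of these rose and 1 fell in IGF2BP3 OE libraries at an adjusted p below 0.05 (edgeR quasi-likelihood test, adjusted over all 10687 genes tested). The 9 that rose were Tomm22, Tomm6 and Tomm40l of the outer-membrane gate, Samm50, Timm50, Timm10b, Timm8b, Timm13 and Chchd10, with increases of 1.32 to 1.71-fold, and the 1 that fell was Mtx3. Higher calls made up 25% of the tested members against 16.5% of all tested genes, and lower calls 2.78% against 12.7%. Calls in either direction made up 27.8% against 29.2%, so the members were called about as often as other genes. The higher count was 1 (2.78%, against 9.42% of all genes) without control replicate 3 and 5 (13.9%) without control replicate 1 or 2 or IGF2BP3 OE replicate 1 or 2, against 10%, 9.84%, 14.8% and 11.3% of all genes. It was 10 (27.8%, against 18.1%) without IGF2BP3 OE replicate 3, and the lower count was 0 in each of these 6 fits. The fold change was above 0 for 26 of 36 members (72.2%) and for 53% of all tested genes, and the median log2 fold change was 0.20 against 0.041. In bulk organoids, fewer cells of a type and less RNA per cell cannot be told apart.

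The transcripts summed over all 42 rows came to 2779 ± 16 CPM in control and 3102 ± 129 CPM in IGF2BP3 OE libraries (SD, n = 3), a ratio of 1.12. Chchd2 was the largest single contributor. Without it the sums were 1816 ± 19.4 and 2138 ± 90.4 CPM. The groups' CPM ranges did not overlap for 15 of the 36 tested members (41.7%), against 45.7% of all tested genes, and 14 of these 15 were higher in IGF2BP3 OE libraries (38.9% of members, against 25.3% of all tested genes).

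**Figure D1:**
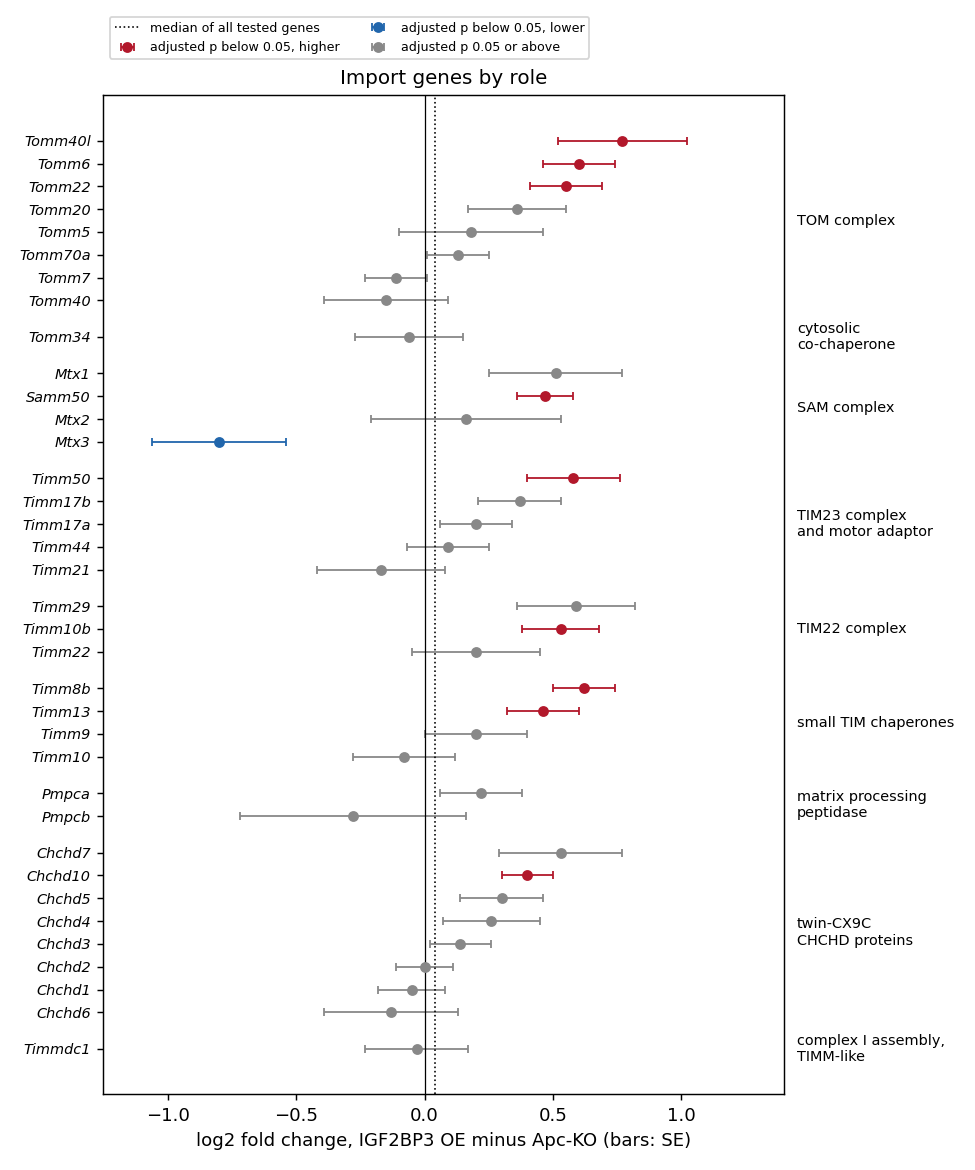
Log2 fold change (IGF2BP3 OE minus Apc-knockout, horizontal axis) of the 36 tested import genes, grouped by role. Points are edgeR estimates and bars their standard errors, red and blue mark the 9 higher and 1 lower calls, and the dotted line is the median of all tested genes. No red point lies in the processing peptidase, the cytosolic co-chaperone (Tomm34) or the complex I assembly group (Timmdc1), and the blue point is Mtx3.

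Promoter windows from 250 bases before to 50 after the annotated start (RefSeq, GRCm38.p6) were found by symbol for 31 of the 36 tested members, in 33 windows. The letters CCGGAAG, the core recognised by ETS factors such as GABPA, a known regulator of mitochondrial genes, stood on either strand in 16 of the 33 windows (48.5%). The same letters were in 8.86% of all 32851 windows and 18.8% of the 10763 windows of tested genes. The NRF1 site, bound by another such regulator and searched as GCGC, any base, then TGCGC, was in 3 windows (9.09%, against 10.5% for tested genes), and CACGTG, the E-box bound by MYC and related factors, in 6 (18.2%, against 10.5%). Of the 8 windows of members that rose, 3 held CCGGAAG, 1 held the NRF1 letters and none held CACGTG (0 of 8). CCAAT was in 10 windows (30.3%, against 37.5% for tested genes) and GGGCGG, the GC box bound by SP factors, in 17 (51.5%, against 64.5%). Tomm34 has overlapping windows, and 1 CCGGAAG site lies in each of them, from -106 and from -39, so that site is counted more than once. A match of letters is a description and not a binding site.

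The windows of 5 genes are shown, from genes on both sides of the comparison: Timm8b, Tomm22 and Timm10b, whose increases were also called with the correction for GC content described below, Samm50, which rose but holds no ETS, NRF1 or E-box letters, and Mtx3, which fell. They are printed 5′ to 3′ on the strand of the gene, with the ETS, NRF1 and E-box letters in capitals. Timm8b (chr9:50603651-50603950, plus strand) has CCGGAAG from -12 and the NRF1 letters from position 19. Tomm22 (chr15:79670618-79670917, plus strand) has matches from -47, -44 and position 6, the first 2 being the same palindromic stretch read on both strands. Timm10b (chr7:105640195-105640494, plus strand) has 1 match from position 37, Samm50 (chr15:84191990-84192289, plus strand) has 0, and Mtx3 (chr13:92844518-92844817, plus strand) has CCGGAAG from -164 and -12 and an E-box from -41.
Timm8b: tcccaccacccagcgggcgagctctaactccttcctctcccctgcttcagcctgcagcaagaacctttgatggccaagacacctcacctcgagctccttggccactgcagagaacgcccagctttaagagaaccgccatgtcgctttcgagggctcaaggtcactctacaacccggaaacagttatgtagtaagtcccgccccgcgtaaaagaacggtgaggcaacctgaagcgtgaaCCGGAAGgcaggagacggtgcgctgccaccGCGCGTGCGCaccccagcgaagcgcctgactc
Tomm22: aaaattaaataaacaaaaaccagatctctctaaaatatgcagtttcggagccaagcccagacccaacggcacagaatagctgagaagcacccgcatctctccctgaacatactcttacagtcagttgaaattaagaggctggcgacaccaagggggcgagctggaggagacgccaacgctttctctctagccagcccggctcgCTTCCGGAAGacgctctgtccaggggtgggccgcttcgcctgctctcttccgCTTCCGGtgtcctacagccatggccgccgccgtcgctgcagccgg
Timm10b: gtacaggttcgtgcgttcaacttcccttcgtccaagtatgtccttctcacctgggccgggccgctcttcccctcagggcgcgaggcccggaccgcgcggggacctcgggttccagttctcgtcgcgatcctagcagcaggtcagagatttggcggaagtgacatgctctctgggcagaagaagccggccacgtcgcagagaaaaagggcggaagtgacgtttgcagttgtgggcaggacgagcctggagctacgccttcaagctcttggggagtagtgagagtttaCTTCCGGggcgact
Samm50: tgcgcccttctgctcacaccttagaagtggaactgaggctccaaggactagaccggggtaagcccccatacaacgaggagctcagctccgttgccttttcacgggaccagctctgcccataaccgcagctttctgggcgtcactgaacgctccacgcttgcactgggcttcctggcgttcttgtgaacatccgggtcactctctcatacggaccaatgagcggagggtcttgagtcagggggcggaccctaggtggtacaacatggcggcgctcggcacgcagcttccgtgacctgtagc
Mtx3: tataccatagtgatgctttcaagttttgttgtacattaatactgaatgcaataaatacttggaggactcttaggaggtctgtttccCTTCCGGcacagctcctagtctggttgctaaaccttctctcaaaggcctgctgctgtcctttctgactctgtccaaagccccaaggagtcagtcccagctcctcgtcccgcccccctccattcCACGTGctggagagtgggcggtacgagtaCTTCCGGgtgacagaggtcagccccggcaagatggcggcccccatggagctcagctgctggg

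At the outer-membrane gate, 3 of 8 tested TOM genes rose and 0 fell. By comparison, 16.5% of all tested genes were called higher and 12.7% lower, and the groups here are small. Tomm22, the central receptor that binds presequences (chromosome 15, 79670861 to 79673400, GRCm38), was at 75.1, 71.3 and 76.5 CPM in control replicates 1 to 3 and at 86.7, 125 and 115 CPM in IGF2BP3 OE replicates 1 to 3. The control values lay close together and every IGF2BP3 OE value was above them, replicate 1 by the least. The log2 fold change came to 0.55 (edgeR, SE 0.14, adjusted p = 0.0127), and 0.64 without IGF2BP3 OE replicate 1. The call was lost without control replicate 1, 2 or 3 (0.56, 0.52 and 0.57, edgeR adjusted p = 0.0539, 0.0658 and 0.0506) and without IGF2BP3 OE replicate 2 (0.41, adjusted p = 0.0692), in a range from 0.000293 to 0.0692 over all alternatives.
Tomm6, a small subunit that stabilises the gate, was counted at 47.9, 57.7 and 42.4 CPM in control and 73.3, 74.7 and 76.1 CPM in IGF2BP3 OE libraries. Its groups did not overlap, and the log2 fold change came to 0.60 (edgeR, SE 0.14, adjusted p = 0.00695). Tomm6 overlaps Gm21981 on the same strand, which was counted almost equally (45.5 ± 6.72 and 70.2 ± 3.59 CPM, SD, n = 3), and 62.9% of the 50-base words in the last 300 bases of Tomm6 also belong to it, so the 2 genes cannot be told apart here. Without control replicate 3 the log2 fold change of Tomm6 was 0.50 and missed the threshold (edgeR adjusted p = 0.0517, range 0.00437 to 0.0824). Tomm40l, a paralogue of the channel gene Tomm40, was at 9.22, 12.7 and 12.0 CPM in control and 22.3, 14.2 and 21.6 CPM in IGF2BP3 OE libraries, a log2 fold change of 0.77 in edgeR (SE 0.25, adjusted p = 0.0338). Its counts were small, 20 to 27 in control libraries, and its call was lost in 8 of 17 alternatives. Among them was each fit that left out a library other than IGF2BP3 OE replicate 2 (0.60 to 0.86, edgeR adjusted p = 0.069 to 0.134). Without IGF2BP3 OE replicate 1 the value was 0.60 (edgeR adjusted p = 0.0844).

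The channel itself showed no called change. Tomm40, which forms the pore, was at 63.6, 59.6 and 48.4 CPM in control and 28.8, 60.2 and 65.5 CPM in IGF2BP3 OE libraries. Only IGF2BP3 OE replicate 1 was low, and the log2 fold change came to -0.15 (edgeR, SE 0.24, adjusted p = 0.668), or 0.08 without that library. The difference between the paralogues Tomm40 and Tomm40l was not tested. Tomm20, the receptor for presequences, was at 24.0, 21.6 and 22.6 CPM in control and 24.7, 26.4 and 36.8 CPM in IGF2BP3 OE libraries, without overlap but with replicate 3 well above the others (log2 fold change 0.36, SE 0.19, edgeR adjusted p = 0.179). The receptor gene Tomm70a, the small subunits Tomm5 and Tomm7, and Tomm34, a cytosolic co-chaperone of precursors, gave log2 fold changes of -0.11 to 0.18 and did not pass. Without IGF2BP3 OE replicate 1 those of Tomm34, Tomm5 and Tomm7 went from -0.06 to 0.06, from 0.18 to 0.30 and from -0.11 to -0.05. Tomm7 was the most abundant TOM transcript, at 264 ± 5.08 CPM in control and 244 ± 35.9 CPM in IGF2BP3 OE libraries (SD, n = 3). Tomm20l was at 0 in all 6 libraries.

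Of the SAM complex, which inserts barrel proteins into the outer membrane, 1 of 4 genes rose and 1 fell. The shares of all tested genes were 16.5% and 12.7%. Samm50, its central barrel subunit (chromosome 15, 84192241 to 84217267), was at 102, 104 and 92.1 CPM in control and 148, 136 and 128 CPM in IGF2BP3 OE libraries. All IGF2BP3 OE values exceeded all control values, with a log2 fold change of 0.47 in edgeR (SE 0.11, adjusted p = 0.00894). Without control replicate 3 it was 0.42 and missed the threshold (edgeR adjusted p = 0.0651, range 0.00357 to 0.0807). Mtx3, a metaxin, was at 11.1, 11.3 and 9.68 CPM in control and 5.67, 6.68 and 5.92 CPM in IGF2BP3 OE libraries. The log2 fold change came to -0.80 (edgeR, SE 0.26, adjusted p = 0.0349), on 14 to 24 counts per library. That call was lost in 10 of 17 alternatives, in each fit that left out a library (-0.90 to -0.76) and with the replicate number as a block (adjusted p = 0.0513 in edgeR, in a range from 0.0197 to 0.151). Mtx1 and Mtx2, the cytosolic-side metaxins of the complex, did not pass (log2 fold changes 0.51 and 0.16, edgeR adjusted p = 0.157 and 0.775). Mtx2 was low in IGF2BP3 OE replicate 1 (7.29 CPM against 19.3 and 27.1), and without it the log2 fold change was 0.48. Summed over the 4 genes the levels were 139 ± 9.76 CPM in control and 179.6 ± 0.94 CPM in IGF2BP3 OE libraries (SD, n = 3), and the libraries of the groups did not overlap. Samm50 made up most of both sums, at 99.2 ± 6.2 and 137 ± 10.1 CPM.

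In the TIM23 complex, the presequence translocase of the inner membrane, 1 of 5 tested genes rose, against 16.5% of all tested genes. Timm50, the receptor that takes precursors from the TOM complex (chromosome 7, 28305516 to 28312072), was at 28.6, 23.9 and 18.9 CPM in control and 36.5, 33.0 and 37.2 CPM in IGF2BP3 OE libraries. The lowest IGF2BP3 OE value was above the highest control value, with a log2 fold change of 0.58 in edgeR (SE 0.18, adjusted p = 0.0299). Its call was lost in 7 of 17 alternatives, among them the fits without control replicate 2 or 3 (0.58 and 0.44) or IGF2BP3 OE replicate 1 or 2 (0.50 and 0.60), with edgeR adjusted p from 0.0507 to 0.14 in these 4 and up to 0.259 in all. Timm17a, a channel subunit, was at 44.7, 44.1 and 44.2 CPM in control and 45.4, 51.1 and 56.2 CPM in IGF2BP3 OE libraries (log2 fold change 0.20, SE 0.14, edgeR adjusted p = 0.301). Its paralogue Timm17b also did not overlap between groups and also did not pass (0.37, SE 0.16, edgeR adjusted p = 0.0931, and 0.20 without IGF2BP3 OE replicate 1). Timm44, which tethers the import motor to the channel, was at 82.5, 92.4 and 112 CPM in control and 126, 93.6 and 85.0 CPM in IGF2BP3 OE libraries, and the groups overlapped (0.09, SE 0.16, edgeR adjusted p = 0.717). IGF2BP3 OE replicate 1 was the highest of the 6, and without it the value was -0.15. Timm21, which links TIM23 to the respiratory chain, gave -0.17 (edgeR adjusted p = 0.637), or -0.07 without IGF2BP3 OE replicate 1.

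Timm23, the channel subunit that names the complex, was counted 5, 2 and 0.5 times in control libraries and 1, 1 and 0 times in IGF2BP3 OE libraries. It was not tested, and no fold is given, since all but 1 value lay under the floor of 3 counts. Of the 50-base words in the last 300 bases of its transcript, 90% also occur in Gm10273, which was at 0 in all 6 libraries. How reads that match both genes were counted is not given in the sources used here, and the level of Timm23 is uncertain.

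The TIM22 complex and the small TIM chaperones together gave 3 calls among 7 tested genes, all higher. Of all tested genes 16.5% were called higher. Timm10b, a small TIM of the TIM22 complex (chromosome 7, 105640056 to 105643637), was at 48.9, 38.5 and 42.9 CPM in control and 72.1, 61.7 and 54.5 CPM in IGF2BP3 OE libraries. The groups did not overlap and the log2 fold change came to 0.53 (edgeR, SE 0.15, adjusted p = 0.0197). The call was lost without control replicate 2 or 3 (0.45 and 0.52) and without IGF2BP3 OE replicate 1 or 2 (0.37 and 0.52), with edgeR adjusted p from 0.064 to 0.102. It overlaps Gm45799 on the same strand, whose counts are not given here. It also overlaps Arfip2 on the opposite strand, which was called higher by a similar amount (0.56, SE 0.13, edgeR adjusted p = 0.00625). The sources used here do not say whether counting used strand, and reads of Timm10b and Arfip2 may not have been told apart. Of the 36 tested members 25 overlap a gene on either strand, and 7 of these were called. Timm22, the channel of the carrier translocase, was at 22.1, 14.1 and 17.5 CPM in control and 27.6, 18.1 and 16.1 CPM in IGF2BP3 OE libraries, which overlapped (0.20, SE 0.25, edgeR adjusted p = 0.581). Without IGF2BP3 OE replicate 1, the highest of the 6, the value was -0.12. Timm29, a further subunit, gave 0.59 without overlap between groups (SE 0.23, edgeR adjusted p = 0.0693).

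The small TIM chaperones escort hydrophobic precursors across the intermembrane space, and 2 of the 4 tested rose, against 16.5% of all tested genes. Timm8b (chromosome 9, 50603910 to 50605320) was at 84.3, 74.6 and 76.0 CPM in control and 111, 119.5 and 131 CPM in IGF2BP3 OE libraries. The groups were well apart, with a log2 fold change of 0.62 in edgeR (SE 0.12, adjusted p = 0.00244), the smallest adjusted p among the members. Its partner Timm13 was at 68.7, 80.7 and 64.5 CPM in control and 112, 97.9 and 84.6 CPM in IGF2BP3 OE libraries, a log2 fold change of 0.46 in edgeR (SE 0.14, adjusted p = 0.0266). The highest control and lowest IGF2BP3 OE value of Timm13 were close, and its call was lost in 7 of 17 alternatives. These included the fits without control replicate 1 or 3 (0.43 and 0.39) or IGF2BP3 OE replicate 1 or 2 (0.30 and 0.44), with edgeR adjusted p from 0.0831 to 0.13 in these 4 and up to 0.374 in all.
The other hexamer of small TIMs is made by Timm9 and Timm10. Timm9 was at 55.8, 30.0 and 43.8 CPM in control and 46.2, 46.4 and 56.6 CPM in IGF2BP3 OE libraries (0.20, SE 0.20, edgeR adjusted p = 0.472). Timm10 was at 22.1, 17.8 and 22.1 CPM in control and 17.0, 20.4 and 21.1 CPM in IGF2BP3 OE libraries (-0.08, SE 0.20, edgeR adjusted p = 0.780, and -0.05 without IGF2BP3 OE replicate 1). Both overlapped between groups. Timm8a1, with 1 to 8 counts per library, and Timm8a2, with 1 count in all, were not tested. Summed over the 6 genes, the small TIMs came to 215.2 ± 16.9 CPM in control and 289 ± 5.54 CPM in IGF2BP3 OE libraries (SD, n = 3), without overlap.

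**Figure D2:**
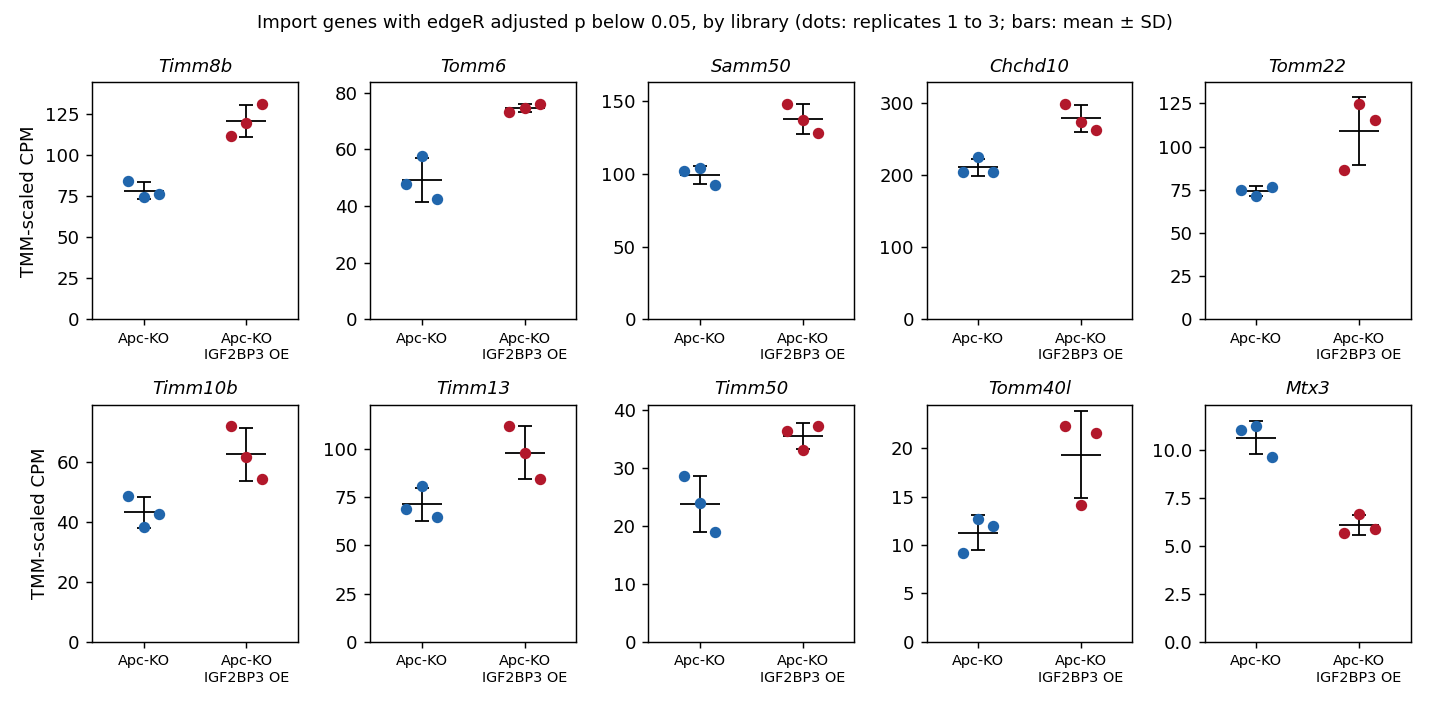
TMM-scaled CPM (vertical axis, from 0) of the 10 called import genes in each library, with dots for replicates 1 to 3 and bars for mean ± SD. In all 10 panels the libraries of the 2 groups do not overlap, with Mtx3 the only gene lower in IGF2BP3 OE. These genes were picked by adjusted p in the same libraries, so the separation is largely built in and is no further evidence. Among all tested genes 45.7% did not overlap.

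The matrix processing peptidase, which cuts off presequences, gave no call. Its catalytic subunit Pmpcb was at 41.9, 56.3 and 60.4 CPM in control and 8.10, 54.3 and 68.1 CPM in IGF2BP3 OE libraries. IGF2BP3 OE replicate 1, on 20 counts, was far below all the others, and the edgeR log2 fold change of -0.28 (SE 0.44, adjusted p = 0.663) became 0.15 without it. The partner Pmpca was at 36.2 ± 2.08 CPM in control and 42.3 ± 6.28 CPM in IGF2BP3 OE libraries (SD, n = 3, edgeR adjusted p = 0.302).

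The Chchd genes encode small proteins with paired cysteine motifs, most of them resident in the intermembrane space. Of 8 tested, 1 rose, against 16.5% of all tested genes. Chchd10 (chromosome 10, 75933130 to 75937747) was at 205, 225 and 204 CPM in control and 299, 275 and 263 CPM in IGF2BP3 OE libraries. The groups did not overlap and the log2 fold change came to 0.40 (edgeR, SE 0.10, adjusted p = 0.0126). It missed the threshold without control replicate 1 or 3 (0.38 in both, edgeR adjusted p = 0.0747 and 0.0783, up to 0.502 in all). Its paralogue Chchd2 was the most abundant member, at 964 ± 11.2 CPM in control and 964 ± 146 CPM in IGF2BP3 OE libraries (SD, n = 3), with a log2 fold change of 0.00 in edgeR (SE 0.11, adjusted p = 0.994), or -0.11 without IGF2BP3 OE replicate 1. Its IGF2BP3 OE libraries were spread from 796 to 1060.0 CPM, around the tight control values, and 23.5% of the 50-base words at its 3′ end occur in other genes. The difference between the paralogues was not tested.
Chchd4, the oxidoreductase that traps cysteine-rich precursors in the intermembrane space, was at 36.4, 37.5 and 30.4 CPM in control and 35.6, 53.9 and 35.5 CPM in IGF2BP3 OE libraries. Only IGF2BP3 OE replicate 2 was above the control range (log2 fold change 0.26, SE 0.19, edgeR adjusted p = 0.315). Chchd3 and Chchd6, of the cristae-organising MICOS complex, gave 0.14 and -0.13, and Chchd1, of the mitochondrial ribosome, gave -0.05, or -0.17 without IGF2BP3 OE replicate 1. Chchd5 and Chchd7 gave 0.30 and 0.53, and none of these 5 passed (edgeR adjusted p from 0.11 to 0.798). Timmdc1, which assembles respiratory complex I despite its name, was at 27.3 ± 5.58 CPM in control and 26.8 ± 3.84 CPM in IGF2BP3 OE libraries (SD, n = 3, edgeR adjusted p = 0.934), with log2 fold changes of -0.03 and, without IGF2BP3 OE replicate 1, 0.03. The antisense gene Tomm6os and the pseudogene Chchd2-ps had 1 count each in all and were not tested.

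**Figure D3:**
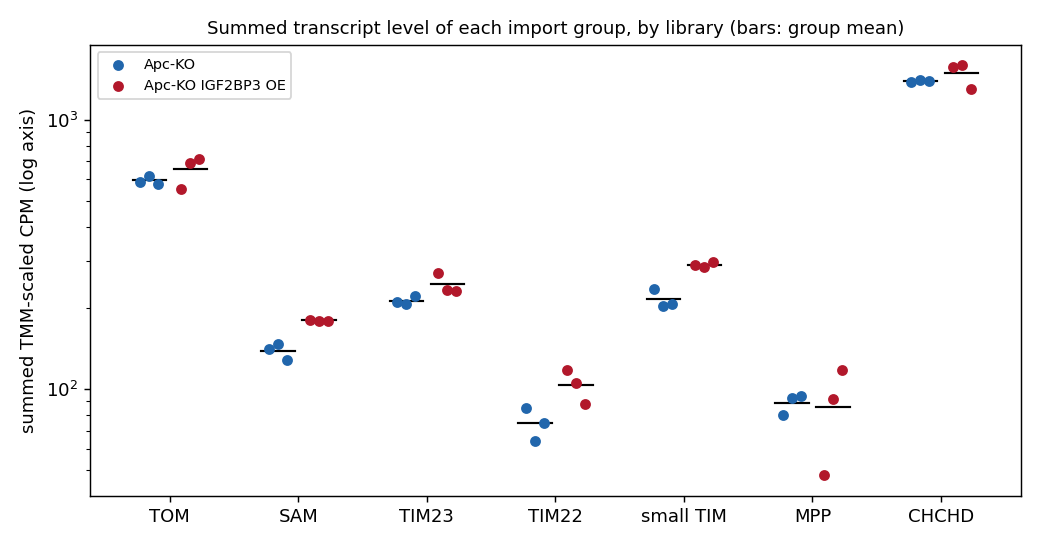
Summed TMM-scaled CPM (log axis) of each import group in each of the 6 libraries, with a bar at the group mean. The SAM, TIM23, TIM22 and small TIM sums do not overlap between groups, whereas the TOM, processing peptidase (MPP) and CHCHD sums do. The TIM22 margin is narrow, with 85.26 CPM in control replicate 1 and 87.52 CPM in IGF2BP3 OE replicate 3. Among single tested genes 45.7% did not overlap. The TOM overlap comes from IGF2BP3 OE replicate 1 (555.4 CPM), since the other IGF2BP3 OE sums, 693.3 and 717.5 CPM, lie above the control sums of 578.7 to 618.3 CPM.

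The median fold change of all tested genes differed with the GC content of transcripts, so the members were compared within classes of GC content. In the lowest class of 3560 genes the median log2 fold change was -0.19 for all genes and 0.18 for the 12 members in it. In the middle class it was 0.05 for all genes and 0.20 for 15 members, and in the highest class 0.27 for all genes and 0.40 for 9 members. Of the 9 members that rose, 1 lay in the lowest, 4 in the middle and 4 in the highest class, where 6.52%, 15.3% and 27.8% of all genes were called higher.
With a GC offset per library, 5 members were called higher (13.9%, against 11.9% of tested genes) and 0 lower. Timm8b (0.57), Timm10b (0.55) and Tomm22 (0.65) were called both with and without it. Chchd10 (0.12), Timm13 (0.18), Timm50 (0.30), Samm50 (0.31), Tomm6 (0.35) and Tomm40l (0.62) no longer passed, with edgeR adjusted p from 0.0714 to 0.443, and Mtx3 (-0.61) had an adjusted p of 0.109. The low-GC genes Tomm70a (0.35, edgeR adjusted p = 0.0417) and Chchd7 (0.73, edgeR adjusted p = 0.0338) passed only with the offset, alone or with the replicate block added.

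**Figure D4:**
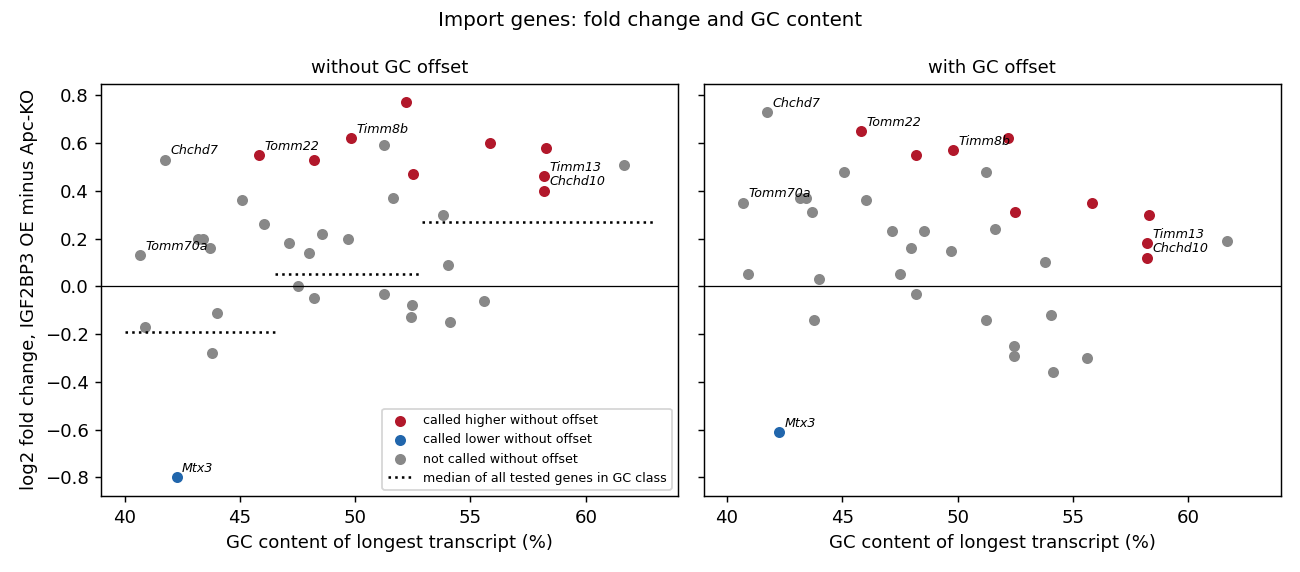
Log2 fold change (IGF2BP3 OE minus Apc-knockout) of the 36 tested import genes against the GC content of the longest transcript (%), without (left) and with (right) a GC offset per library. Red and blue mark higher and lower calls without the offset, dotted lines (left) the median of all tested genes in each GC class (-0.19, 0.05 and 0.27), and the high-GC genes Chchd10 and Timm13 drop from 0.40 and 0.46 to 0.12 and 0.18.

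A list of 40 other symbols, older and current, held import genes and also cytosolic chaperones, proteases, MICOS genes and small cysteine-rich proteins. These are called other import genes here, and a call among them is not always that of an import subunit. Of these symbols 38 were found and 36 tested, with 11 higher (30.6%, against 16.5% of all tested genes) and 3 lower (8.33%, against 12.7%). Their median log2 fold change was 0.18. The higher ones included Romo1, a TIM23 subunit, at 140.1, 123 and 131 CPM in control and 205, 219 and 177 CPM in IGF2BP3 OE libraries (log2 fold change 0.61, SE 0.12, edgeR adjusted p = 0.00247). The MICOS genes Micos13 and Micos10 rose by 0.60 and 0.76 (edgeR adjusted p = 0.00284 and 0.00336), and Mtch1, an outer-membrane insertase, rose by 0.69 (edgeR adjusted p = 0.00736).
The lower ones were Yme1l1, Aifm1 and Hspd1. Yme1l1, an inner-membrane protease that degrades import subunits, was at 118, 113 and 114 CPM in control and 70.9, 73.1 and 69.8 CPM in IGF2BP3 OE libraries (-0.69, SE 0.11, edgeR adjusted p = 0.00088). Aifm1, which binds CHCHD4, was at 89.4, 74.6 and 69.6 CPM in control and 39.3, 47.2 and 46.1 CPM in IGF2BP3 OE libraries (-0.82, SE 0.14, edgeR adjusted p = 0.00142). Both were well separated between groups. The motor genes did not pass: Hspa9, the matrix chaperone that pulls precursors in, gave -0.18 (SE 0.11, edgeR adjusted p = 0.219), and its exchange factor Grpel1 gave 0.07 (SE 0.16, edgeR adjusted p = 0.778). Agk, a TIM22 subunit, was too low to test, with control libraries at 5, 9 and 11 counts and IGF2BP3 OE libraries at 1, 1 and 10.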

How the data were processed

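Per the labels' protocols, total RNA went into QuantSeq 3′ forward libraries. STAR, HTSeq and the mm10 and GRCm38 builds are named in the submitters' processing notes, without roles. Whether counting used strand, multi-mapping reads or molecular identifiers is not given in the sources used here. The authors deposited estimated counts per Ensembl gene, not normalized. Of the values above 0, 3.09% were fractional and were rounded, whereas the test had been planned for counts.

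Groups and replicate numbers came from the sample titles. edgeR 4.0.16 (R 4.3.3) was fitted on all 6 libraries with filterByExpr, TMM scaling and no covariate, and p-values were adjusted by Benjamini-Hochberg over 10687 genes. The edgeR fit was tested on simulated data, with an outcome not given here, and no result above rests on it. Levels are TMM-scaled CPM, and 3 counts per library were taken as the floor, which covers counting error only. Positions, GC content and overlaps came from GENCODE M21 (GRCm38), and promoters from RefSeq. GC offsets used loess (span 0.5).

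The members and lists were chosen with earlier results of these data known. Full values are given for members with adjusted p below 0.05 and for fixed core subunits, and for up to 6 called genes of the other import list plus Hspa9, Grpel1 and Agk. Tomm40l, Mtx2, Tomm6 neighbours and genes low in a single library were described after their values were seen. Alternatives were DESeq2 size factors, library totals, DESeq2 1.42.0, other count filters, a replicate block, GC offsets, equal depth, unrounded counts, removal of mitochondrial and ribosomal RNA genes, and leaving out each library.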

Additional observations from a re-analysis of the deposited data

How the results depend on the processing

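The count of 9 import genes higher became 5 (13.9%) with DESeq2's test, 5 with the GC offset and 5 with the replicate block and GC offset together (all genes 9.91%, 11.9% and 12.4%), and 1 to 10 when single libraries were left out. It was 1, Timm8b, without control replicate 3, 10 without IGF2BP3 OE replicate 3 and 5 without any other single library. In the remaining alternatives it stayed at 9. The count of 1 import gene lower became 0 with DESeq2's test, the replicate block, the GC offset, both together, and each library left out (0 to 0). Timm8b passed in all 17 alternatives (log2 fold change 0.56 to 0.68). The count of 11 other import genes higher became 7 with DESeq2's test, 8 with the GC offset and 10 with block and offset together. It was 7 to 12 when libraries were left out, with 7 in each fit without a control library. The shares of all genes called higher were those given above, and 9.42 to 18.1% when libraries were left out. The count over all genes, 3118, ranged from 1748 to 3532 when libraries were left out, the 3 lowest (1748, 1837 and 1893) without a control library. The median of the members ran from 0.142 to 0.306.

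Under the replicate block, 3112 genes and 9 import genes higher passed, and Mtx3 was the only member whose call changed. Deviations of equally numbered libraries correlated at 0.1, 0.02 and 0.07, and the numbers share no stated culture.

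Of 612 values for single members, 525 kept direction and call, 51 lost and 6 gained a call, and 30 changed sign, all of uncalled members. Chchd2 became -0.04 with DESeq2 size factors or test, -0.03 without a count filter, -0.01 with the replicate block and -0.06 without mitochondrial and ribosomal RNA genes. Timmdc1 became 0.02 with library totals and 0.01 at equal depth. With the GC offset Timm21 became 0.05, Timm44 -0.12 and Tomm7 0.03, and with the block added 0.05, -0.13 and 0.03. Leaving out single libraries gave ranges across 0 for Timmdc1 (-0.17 to 0.12), Tomm34 (-0.28 to 0.06), Pmpcb (-0.75 to 0.15), Mtx2 (-0.25 to 0.48), Timm9 (0 to 0.43), Timm22 (-0.12 to 0.38), Timm44 (-0.15 to 0.22), Tomm5 (-0.09 to 0.32), Tomm40 (-0.35 to 0.08), Chchd6 (-0.37 to 0.03) and Chchd2 (-0.11 to 0.13). The cause of these changes was not tested. Of the called members, Mtx3, with 14 to 24 counts per library, lost its call in 10 of 17 alternatives, Tomm40l, with 20 to 55, in 8, and Timm13 and Timm50 in 7 each.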

Other observations

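Among members with a mean of at least 10 CPM, 3 of 35 lay at less than 50% of the lower of the other libraries of their group in IGF2BP3 OE replicate 1 (Mtx2, Pmpcb and Tomm40), and 0 of 35 in each of the other 5 libraries. Of all 8851 such genes, 3.06% were low in that library. In the list of other import genes the same library was low for Cox17, a copper chaperone, at 34.0 CPM against 170.3 and 196 CPM in the other IGF2BP3 OE libraries and 136 to 169 CPM in control. It was also low for Cmc1, at 26.3 CPM against 71.2 and 57.1 CPM, with 57.2 to 59.4 CPM in control. IGF2BP3 OE replicate 1 was the library farthest from its group's median for 19 of 36 members, replicate 2 for 8 and replicate 3 for 9. In control the counts were 13, 12 and 11 for replicates 1 to 3. Such counts over all tested genes are not given here, so these do not set the members apart from other genes. The pattern in IGF2BP3 OE replicate 1 was noticed after the values were seen, and its cause was not tested.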
